A study of Mus musculus with 12 samples.

Results

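Immediate early response genes are the genes that a cell switches on first after a stimulus, without waiting for new protein. The 38 genes described here were chosen by symbol. Each is represented by the probe set of its gene with the highest mean over all 12 arrays, out of 19505 genes with a named probe set. All 38 had one, and 37 passed the filter on dim genes (mean log2 signal over all 12 arrays of at least 3.40), against 13653 of all genes. Dusp2 was the member left out of the tests.

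The arrays measured total RNA of mouse myocardium in 3 groups of 4 mice, with 1 array per mouse. AngIV mice were made diabetic with streptozotocin, a toxin of the insulin-producing beta cells injected into the abdomen on 5 consecutive days, and then received angiotensin IV, a short fragment of angiotensin II, as a high-dose infusion of 2.88 mg/kg/day from the end of week 8 to the end of week 24. DM mice were made diabetic in the same way and did not receive the peptide. NC mice received injections of vehicle on 5 days. Mice of both diabetic groups entered with a fasting blood glucose of at least 16.7 mM measured 2 weeks after the toxin, and the labels give 6 months for all tissue. The labels give neither strain nor sex. Groups follow the titles, source names and series design, since a further tag, on disease state, contradicts all of these for the NC and AngIV mice.

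Immediate early genes are turned on within minutes by kinases that phosphorylate factors already sitting on their promoters. SRF with its ternary complex partners acts on the serum response element, whose core is the CArG box, and CREB acts on the cyclic AMP response element (CRE). The products fall into transcription factors of the AP-1, EGR, NR4A and KLF families, which pass the signal on, and into brakes, such as the phosphatases that switch MAP kinases off, the proteins that destroy unstable mRNAs and the inhibitor of NF-kappaB. In the heart they respond to stretch, adrenergic and angiotensin signals and to ischaemia, and most of their mRNAs decay fast.

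The promoters of 6 members are shown because these had the smallest p-values among the members eligible for printing that have an entry in the RefSeq promoter table (GRCm38.p6). Each runs from 250 bases before the start of transcription to 50 bases after it, 5′ to 3′ on the strand of the gene. Capitals mark every match to one of 5 motifs sought on both strands, which were the CArG box, the full CRE TGACGTCA, its core TGACG, the AP-1 site TGANTCA and the EGR site GCGNGGGCG. The core is part of the full CRE, so each full CRE also counts as 2 cores.
Dusp1, chr17:26508423-26508722, minus strand: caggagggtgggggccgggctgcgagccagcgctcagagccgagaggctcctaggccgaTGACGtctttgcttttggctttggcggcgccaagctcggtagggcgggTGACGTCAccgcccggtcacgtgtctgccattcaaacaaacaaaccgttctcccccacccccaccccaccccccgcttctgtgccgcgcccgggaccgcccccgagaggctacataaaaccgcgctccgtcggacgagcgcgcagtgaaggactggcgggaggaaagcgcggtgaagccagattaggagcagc
Ier3, chr17:35821463-35821762, plus strand: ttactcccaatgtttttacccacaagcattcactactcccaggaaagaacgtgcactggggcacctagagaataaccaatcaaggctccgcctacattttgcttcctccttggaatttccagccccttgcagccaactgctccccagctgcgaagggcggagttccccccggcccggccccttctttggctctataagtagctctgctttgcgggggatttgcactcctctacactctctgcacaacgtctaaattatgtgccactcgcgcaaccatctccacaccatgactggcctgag
Btg2, chr1:134079106-134079405, minus strand: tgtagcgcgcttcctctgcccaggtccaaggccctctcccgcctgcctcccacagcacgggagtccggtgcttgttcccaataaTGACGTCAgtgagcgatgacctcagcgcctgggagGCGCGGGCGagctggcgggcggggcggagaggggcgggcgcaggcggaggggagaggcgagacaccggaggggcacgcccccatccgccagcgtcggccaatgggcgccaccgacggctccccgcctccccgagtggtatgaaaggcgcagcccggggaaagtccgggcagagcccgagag
Nr4a2, chr2:57123954-57124253, minus strand: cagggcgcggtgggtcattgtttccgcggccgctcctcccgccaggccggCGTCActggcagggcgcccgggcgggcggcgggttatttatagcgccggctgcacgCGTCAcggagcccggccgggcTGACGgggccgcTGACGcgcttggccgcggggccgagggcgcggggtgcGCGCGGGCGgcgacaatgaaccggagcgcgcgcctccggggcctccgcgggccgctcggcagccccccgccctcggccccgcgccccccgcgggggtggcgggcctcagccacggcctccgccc
Nfkbia, chr12:55492598-55492897, minus strand: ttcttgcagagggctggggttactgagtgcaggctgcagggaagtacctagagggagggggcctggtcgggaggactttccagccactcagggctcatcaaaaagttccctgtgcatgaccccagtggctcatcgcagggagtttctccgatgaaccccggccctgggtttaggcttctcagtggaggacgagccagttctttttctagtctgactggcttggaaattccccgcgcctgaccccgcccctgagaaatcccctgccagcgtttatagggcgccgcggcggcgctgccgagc
Fos, chr12:85473640-85473939, plus strand: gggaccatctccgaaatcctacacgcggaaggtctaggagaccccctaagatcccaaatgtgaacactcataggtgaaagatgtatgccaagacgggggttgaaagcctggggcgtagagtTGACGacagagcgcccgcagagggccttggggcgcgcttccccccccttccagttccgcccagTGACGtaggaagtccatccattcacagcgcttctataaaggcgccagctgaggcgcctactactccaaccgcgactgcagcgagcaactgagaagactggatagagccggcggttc

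The full CRE stood in the Dusp1 and Btg2 promoters, the core outside a full CRE in those of Dusp1, Nr4a2 and Fos, and an EGR site in those of Btg2 and Nr4a2. The Ier3 and Nfkbia windows held none of the 5 motifs. Of the 38 members 30 had an entry, with 39 promoters, and 24 of these (61.5%) held the core TGACG, against 20.8% of all 32851 promoters in the table. An EGR site stood in 33.3% of the members' promoters, against 5.55% of all promoters, a CArG box in 17.9%, against 1.63%, the full CRE in 7.69%, against 1.79%, and an AP-1 site in 5.13%, against 7.81%. Members with several start sites count several times in these shares. Counted by gene, 18 of 30 held the core, 13 an EGR site and 4 a CArG box, the last being Srf, Egr2, Zfp36 and Dusp5. A match describes the letters of the sequence and is not evidence of binding.

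Signals lay low for many members. Of the negative control signals, the 95th percentile stood between 5.39 and 5.60 on the 12 arrays, and a group mean below it (5.53 in AngIV, 5.53 in DM and 5.48 in NC) is called near background here. By that measure 19 members lay above background in all 3 groups, 5 in some groups only and 14 in none, among them Fos, Fosb, Atf3, Egr2, Ier2 and Socs3. The same count was not made over all genes, so low signal is not shown to set the members apart. Where a group mean was near background no fold is given, and a log2 change there is a difference of dim signals. The brightest member was Dusp1, and the dimmest was Dusp2, a phosphatase of activated leukocytes, at 2.91 to 3.20 in AngIV, 2.99 to 3.88 in DM and 3.20 to 3.79 in NC. Egr3 had 3 probe sets that disagreed in level, with means of 6.09, 5.84 and 2.99. Those at 6.09 and 5.84 carry IDs with no place on a chromosome. The one at 2.99 has such a place and lay below the filter on dim genes. Egr3 counts as above background here by its brightest probe set only. Defining markers of heart muscle were bright, with a mean log2 signal of 11.15 to 11.26 in AngIV, 11.03 to 11.18 in DM and 11.10 to 11.26 in NC over 5 of 5 markers. All measured markers of neutrophils (2), fat cells (3) and lymphocytes (2) lay below the negative controls' 95th percentile on every array. The tissue holds several cell types, so fewer cells of a type and less RNA per cell cannot be told apart in any value that follows.

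**Figure D1:**
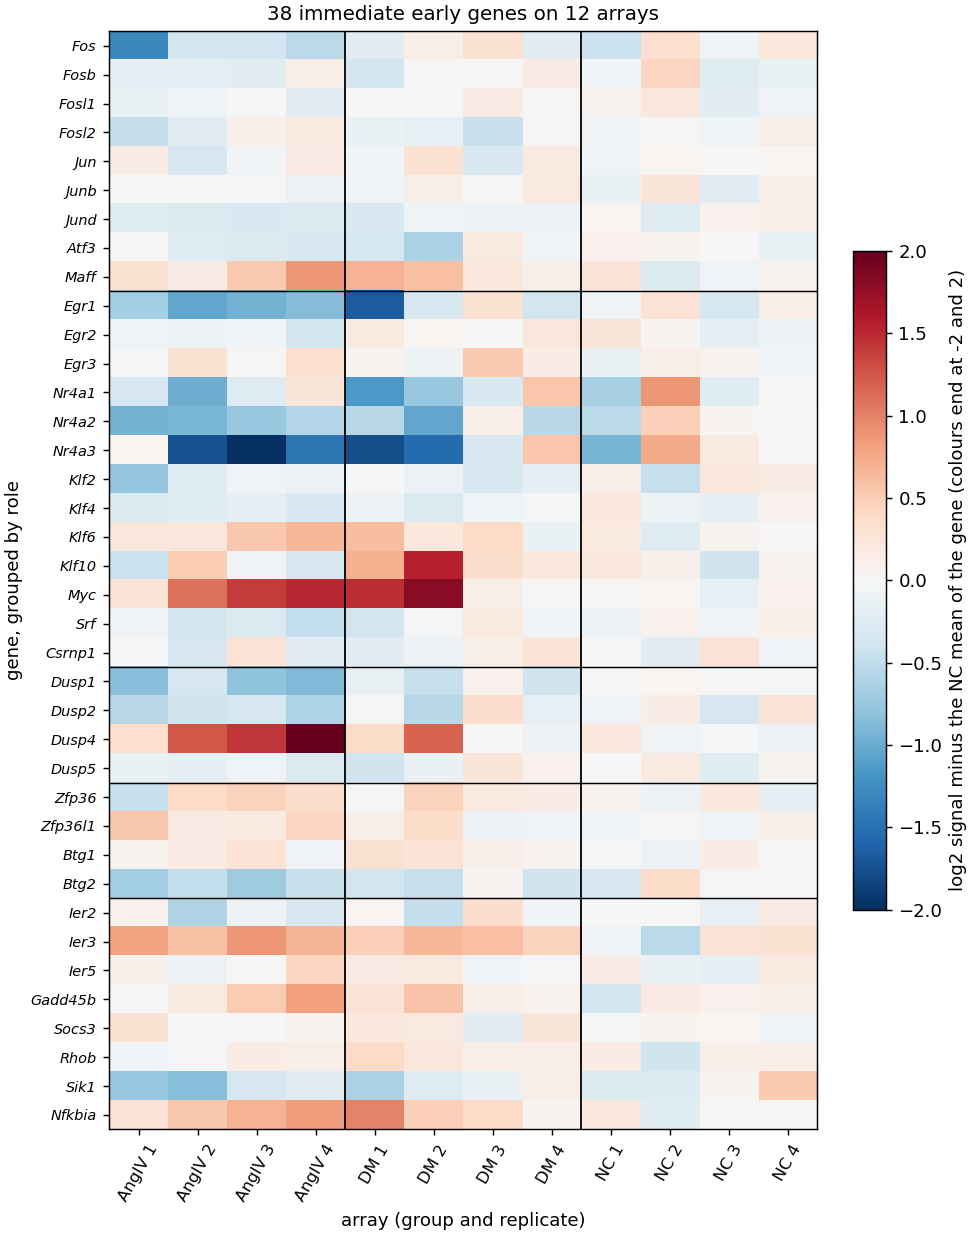
Log2 signal of each of the 38 genes (rows, grouped by role) minus the gene's NC mean, on the 12 arrays (columns, AngIV, DM and NC from left to right). Blue cells (below the NC mean) fill the AngIV columns of Dusp1, Btg2, Nr4a2 and Egr1, and red cells those of Ier3, Nfkbia, Dusp4 and Myc, while DM columns differ among themselves.

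The widest comparison set AngIV against NC, diabetic mice infused with angiotensin IV against mice with neither. The MAP kinase phosphatase gene Dusp1 fell and the survival gene Ier3 rose, the only members called by limma (adjusted p under 0.05 over 13653 genes), that is 1 lower and 1 higher of 37. Over all genes 2.15% were called, 0.623% lower and 1.52% higher. At an unadjusted p under 0.05 there were 17 of 37 members (45.9%), 10 lower and 7 higher, against 18.6% of all genes, 7.74% lower and 10.9% higher. The median log2 change was -0.10 over the members and 0.00 over all genes, and 23 of 37 members had a negative one, against 49.4% of all genes. The members' median was -0.05 without NC replicate 2, -0.15 without AngIV replicate 3, -0.19 without NC replicate 3 and -0.17 without the 5 arrays on which the atrial gene Myl7 was high. For 5 members every AngIV array lay below every NC array, and for 6 every AngIV array lay above, as for 5.17% and 7.59% of all genes.

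Of the 3 phosphatases tested 1 was called, where 2.15% of all genes were. Dusp1, which inactivates p38, JNK and ERK, read 7.42, 7.93, 7.46 and 7.37 on AngIV replicates 1 to 4 and 8.24, 8.30, 8.25 and 8.23 on the NC arrays. Every AngIV array lay below every NC array, and the NC mice were nearly identical. The log2 change was -0.71 ± 0.14 (SE; limma adjusted p = 0.0165), a level 1.64-fold lower in AngIV. Dusp4, a nuclear phosphatase for ERK and JNK, read 4.23, 5.15, 5.34 and 6.42 in AngIV and 4.12, 3.84, 3.90 and 3.79 in NC. It was higher on every AngIV array, but the AngIV mice spread over more than 2 log2 units and replicate 1 lay just above the NC range. Its log2 change of 1.37 ± 0.35 (SE) was not called (limma adjusted p = 0.0551), and both means lay near background. Dusp5, the nuclear phosphatase specific for ERK, stood at 5.48 ± 0.09 in AngIV and 5.66 ± 0.17 in NC (SD, n = 4 each).

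Ier3, also known as IEX-1, modulates ERK signalling and cell survival. It read 6.90, 6.68, 6.97 and 6.76 in AngIV and 6.03, 5.55, 6.38 and 6.39 in NC. All AngIV arrays lay above all NC arrays. The log2 change was 0.74 ± 0.16 (SE; limma adjusted p = 0.0254), a level 1.67-fold higher in AngIV. Nfkbia, which encodes the inhibitor of NF-kappaB and is itself an NF-kappaB target, read 6.79, 7.05, 7.22 and 7.36 in AngIV and 6.73, 6.27, 6.52 and 6.54 in NC. These groups did not overlap either, and the change of 0.59 ± 0.18 (SE) was not called (limma adjusted p = 0.0929). Sik1, a salt-inducible kinase that restrains CREB coactivators, ran the other way, at 5.11, 5.01, 5.53 and 5.65 in AngIV and 5.57, 5.59, 5.92 and 6.38 in NC. AngIV replicate 4 lay above the lowest NC arrays, and the AngIV mean lay near background. The change was -0.54 ± 0.20 (SE; limma adjusted p = 0.168). In the remaining 5 signalling members, Ier2, Ier5, the growth arrest gene Gadd45b, the cytokine signalling inhibitor gene Socs3 and the small GTPase gene Rhob, the unadjusted p was not under 0.05.

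Among the AP-1 genes, whose products pair as dimers of FOS, JUN and related proteins, 0 of 9 were called, where 2.15% of all genes were, and 8 of 9 had a negative change, as had 49.4% of all genes. Fos read 3.17, 4.09, 4.07 and 3.92 in AngIV and 4.02, 4.77, 4.36 and 4.66 in NC, all near background. One NC array lay within the AngIV range. The change was -0.64 ± 0.21 (SE; limma adjusted p = 0.115). Jund, the AP-1 member that is present without a stimulus, was bright and tightly spread between 6.99 and 7.04 on the 4 AngIV arrays, against 7.33, 7.04, 7.38 and 7.43 in NC. NC replicate 2 alone lay within the AngIV range, and the change was -0.28 ± 0.10 (SE; limma adjusted p = 0.152). Maff, a small MAF protein with no activation domain, was the AP-1 relative with a positive change. It stood at 4.53, 4.39, 4.74 and 5.09 in AngIV and 4.49, 3.96, 4.16 and 4.30 in NC, a change of 0.46 ± 0.17 (SE; limma adjusted p = 0.155) near background. Jun and Junb differed little in mean, at 6.47 ± 0.23 and 6.25 ± 0.05 in AngIV, against 6.49 ± 0.05 and 6.29 ± 0.22 in NC (SD, n = 4 each).

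Fosl2, a long-lived FOS relative, read 6.18 ± 0.30 in AngIV and 6.29 ± 0.10 in NC, and Fosl1 5.67 ± 0.09 and 5.78 ± 0.20. The stress-induced repressor gene Atf3 read 5.02 ± 0.15 in AngIV and 5.23 ± 0.09 in NC, and Fosb 5.02 ± 0.17 and 5.14 ± 0.29 (SD, n = 4 each). The groups overlapped for each of these genes.

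The zinc-finger and nuclear receptor genes were counted together with Myc, Srf and Csrnp1, which belong to neither family. Of the 13 members of this mixed group 7 had an unadjusted p under 0.05, 5 lower and 2 higher, and 0 were called. Over all genes 18.6% had such a p, 7.74% lower and 10.9% higher, and 2.15% were called. Egr1, the growth factor-responsive zinc-finger factor, read 5.56, 5.21, 5.30 and 5.38 in AngIV and 6.17, 6.53, 5.90 and 6.38 in NC. The groups did not overlap, the AngIV mean lay near background, and the change was -0.88 ± 0.29 (SE; limma adjusted p = 0.124). NR4A genes encode orphan nuclear receptors that respond to cyclic AMP and calcium. Nr4a2 read 2.95, 2.97, 3.13 and 3.31 in AngIV and 3.35, 4.36, 3.95 and 3.90 in NC, without overlap and near background throughout (-0.80 ± 0.22 SE; limma adjusted p = 0.0727). Nr4a3 read 6.12, 4.34, 3.51 and 4.63 in AngIV and 5.14, 6.84, 6.27 and 6.06 in NC. AngIV replicate 1 alone lay within the NC range, the AngIV mean lay near background, and the change was -1.43 ± 0.55 (SE; limma adjusted p = 0.175). Nr4a1 overlapped widely, at 6.32 ± 0.50 in AngIV and 6.65 ± 0.66 in NC (SD, n = 4 each).

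Klf4, a Kruppel-like factor of vessel wall cells, was lower on every AngIV array (5.04 to 5.14) than on any NC array (5.15 to 5.56), a change of -0.26 ± 0.10 (SE; limma adjusted p = 0.203) near background. Klf6, an injury-induced relative, read 6.79, 6.80, 7.10 and 7.23 in AngIV and 6.76, 6.31, 6.63 and 6.57 in NC. These groups were separate by a narrow gap, and the change was 0.41 ± 0.16 (SE; limma adjusted p = 0.175). Srf, the factor that binds the CArG box, read 6.97, 6.66, 6.74 and 6.54 in AngIV and 6.90, 7.11, 6.97 and 7.14 in NC, with AngIV replicate 1 inside the NC range (-0.30 ± 0.13 SE; limma adjusted p = 0.218). Myc, the growth-promoting factor, read 4.34, 5.18, 5.48 and 5.59 in AngIV and 4.10, 4.12, 3.92 and 4.17 in NC. All AngIV arrays were above all NC arrays, replicate 1 by little, and the change was 1.07 ± 0.35 (SE; limma adjusted p = 0.122) near background. The shear stress-responsive factor gene Klf2 overlapped, at 5.67 ± 0.33 in AngIV and 5.98 ± 0.31 in NC (SD, n = 4 each), as did Egr2, Egr3, Klf10 and Csrnp1.

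Btg2, an antiproliferative gene whose product promotes removal of mRNA tails, was lower on all AngIV arrays. It read 5.56, 5.77, 5.55 and 5.83 in AngIV and 5.93, 6.63, 6.22 and 6.28 in NC. The change of -0.59 ± 0.15 (SE) was not called (limma adjusted p = 0.0519). Its relative Btg1 had 6.14 ± 0.15 in AngIV and 6.03 ± 0.11 in NC (SD, n = 4 each). Zfp36l1, whose product destroys mRNAs with AU-rich elements, read 8.04, 7.67, 7.68 and 7.92 in AngIV and 7.43, 7.53, 7.43 and 7.61 in NC. The groups did not overlap, and the change was 0.33 ± 0.12 (SE; limma adjusted p = 0.169). Its better known relative Zfp36 overlapped, at 5.05 ± 0.42 in AngIV and 4.87 ± 0.17 in NC (SD, n = 4 each).

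**Figure D2:**
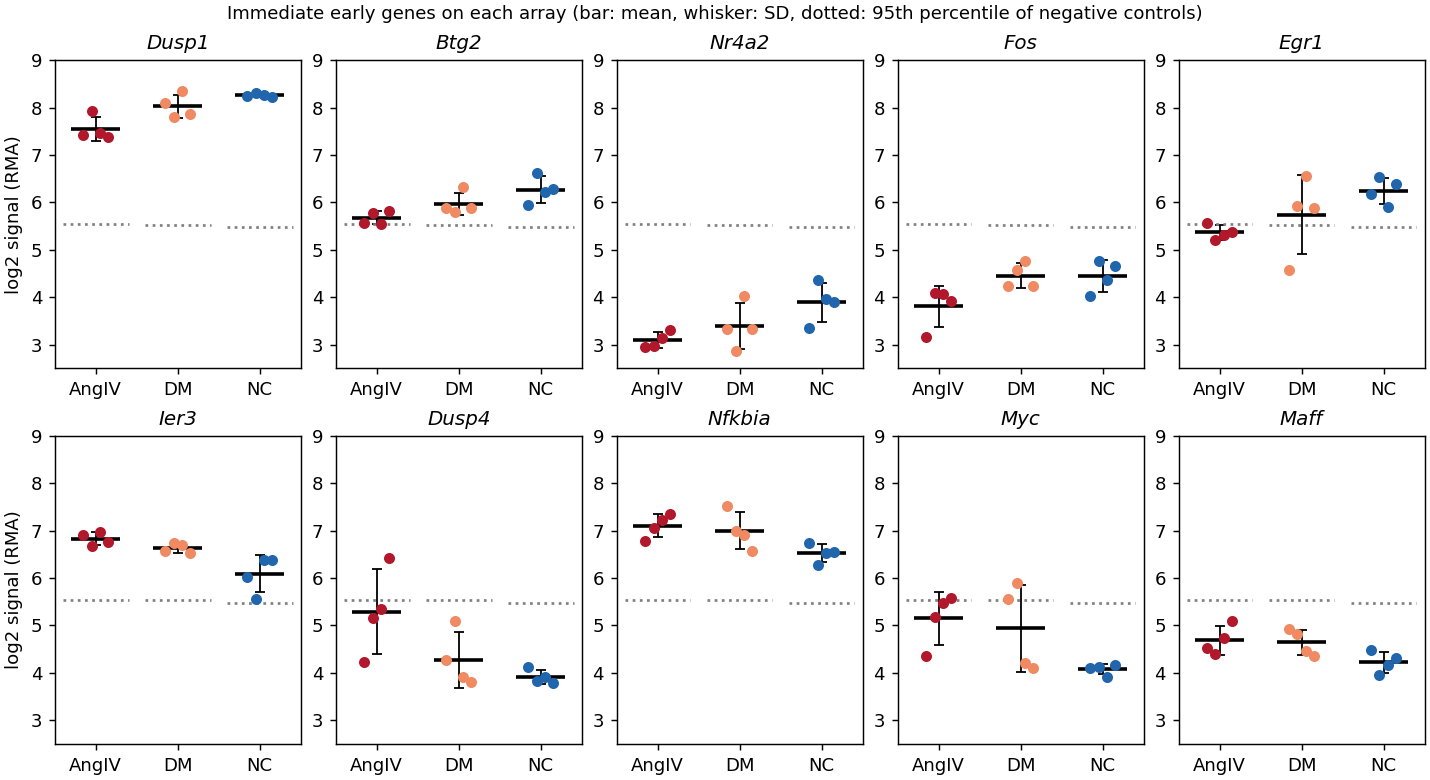
Log2 signal of 10 members on each array (points) in AngIV, DM and NC from left to right, with mean, SD and, dotted, the mean 95th percentile of the negative controls. In the top row (Dusp1, Btg2, Nr4a2, Fos, Egr1) AngIV means lie below NC means (Dusp1 7.54 and 8.26), in the bottom row above them (Ier3 6.83 and 6.09), and the means of Nr4a2, Fos, Dusp4, Myc and Maff lie below the dotted line in all 3 groups.

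The direction was set against the promoter letters. Of the 10 members that were lower in AngIV than in NC at an unadjusted p under 0.05, 8 had a promoter in the table and 7 of these held the core TGACG, Jund being the exception. Of the 7 that were higher, 5 had one and 1 of these, Maff, held the core, while Ier3, Klf6, Nfkbia and Zfp36l1 did not. Among the other 20 tested members 16 had a promoter and 9 of these held it. The other motifs stood as follows in the same lower and higher members. The full CRE stood in Dusp1 and Btg2 (lower) and Maff (higher). An EGR site stood in Btg2, Nr4a2, Klf4 and Srf (lower) and Maff (higher). A CArG box stood in Srf (lower) and an AP-1 site in Zfp36l1 (higher). The core was 1 of 5 motifs sought, its split was noticed after the values were seen, and no test was made of it.

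Called members depended on single mice. Without AngIV replicate 3 or AngIV replicate 4 limma called 0 members, with 15 and 13 at an unadjusted p under 0.05, and without NC replicate 2 it called 1, Ier3. Dusp1 had adjusted p-values of 0.0553, 0.0586 and 0.0515 in these 3 fits, and Ier3 lost its call also without AngIV replicate 1 (0.056) or NC replicate 1 (0.0618). Over all genes these 3 fits called 106, 104 and 107, against 293 with all arrays. How many of all genes had an unadjusted p under 0.05 was not counted in them. Leaving out DM replicate 1 or DM replicate 3 gave 4 called members each, with 469 and 282 of all genes called. The changes themselves ranged from -0.84 to -0.66 for Dusp1 and from 0.56 to 0.84 for Ier3, over all 12 such fits.

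Atrial markers were high on 5 of the DM and NC arrays and on no AngIV array, and the mean of the macrophage markers overlapped between the groups. No marker of either list was called by limma. In AngIV against NC 3 of 3 atrial markers were lower at an unadjusted p under 0.05 (7.74% of all genes). At that level 2 of 4 macrophage markers were higher (10.9% of all genes), and in DM against NC also 2 of 4 (5.62%). The mean log2 signal of the atrial genes Myl7, Myl4 and Sln was 4.50 to 4.92 in AngIV, 4.93 to 9.25 in DM and 4.89 to 9.80 in NC. With that mean as a covariate limma called 6 members and 310 of all genes in AngIV against NC, the members being the 2 above with Btg2, Dusp4, Nr4a2 and Fos. With the 5 arrays of a Myl7 signal above 7 left out (DM replicates 1, 2 and 4, NC replicates 1 and 3) it called 2 members, Egr1 and Nr4a2, and 102 of all genes, while Dusp1 and Ier3 had changes of -0.72 and 0.86 with adjusted p-values of 0.102 and 0.114. The macrophage markers averaged 5.07 to 6.19 in AngIV, 5.11 to 6.30 in DM and 4.82 to 5.29 in NC over 4 genes. In AngIV against NC 1 of the 4 was higher without overlap (7.59% of all genes), and in DM against NC also 1 (2.84%). The part of these markers in the results was not tested. The mean of the 5 endothelial markers overlapped between the groups, at 6.99 to 7.39 in AngIV, 6.88 to 7.33 in DM and 6.91 to 7.22 in NC. In AngIV against NC 1 of the 5 was higher without overlap (7.59% of all genes). In DM against NC 1 was lower without overlap (2.45% of all genes).

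**Figure D3:**
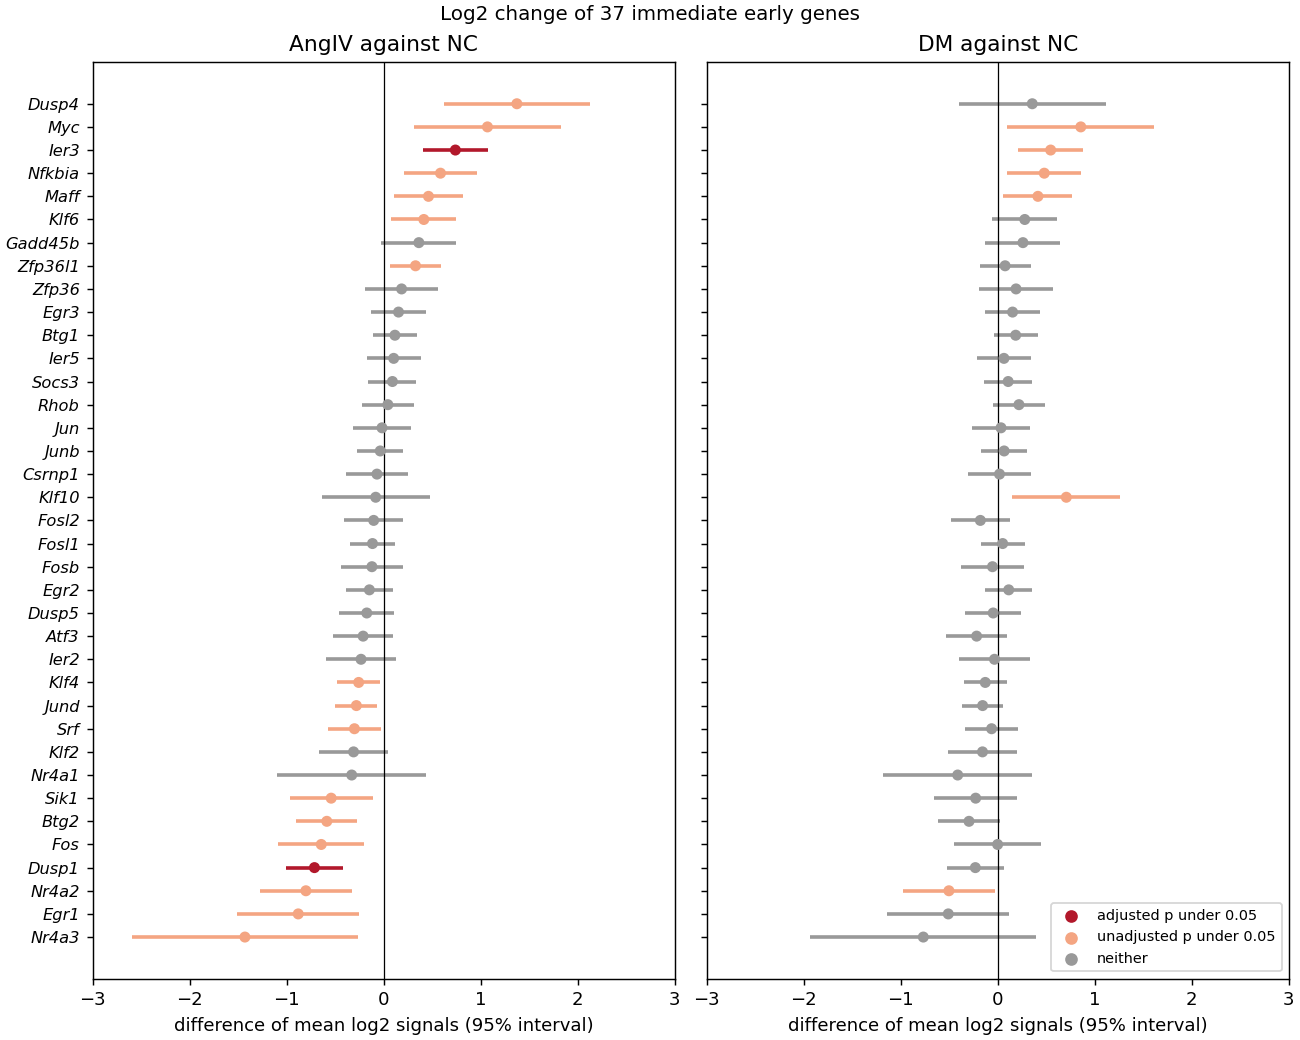
Difference of mean log2 signals of the 37 tested members with 95% intervals, AngIV against NC on the left and DM against NC on the right, both in the order of the left panel. Dusp1 at -0.71 and Ier3 at 0.74 on the left are the 2 members called, and no member is called on the right. The panels share the NC arrays.

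In DM against NC, the comparison of untreated diabetes, limma called 0 of 37 members, against 0.022% of all genes. At an unadjusted p under 0.05 there were 6 members (16.2%), 5 higher and 1 lower, against 10.7% of all genes, 5.62% higher and 5.08% lower. The median log2 change was 0.03 over the members and 0.00 over all genes, and 17 of 37 members had a negative one, against 50.4% of all genes. Ier3 was separate here too, at 6.57, 6.75, 6.69 and 6.53 in DM and 5.55 to 6.39 in NC, a change of 0.54 ± 0.16 (SE; limma adjusted p = 0.223). It was the 1 member of 37 whose groups did not overlap with DM higher, against 2.84% of all genes, and 0 of 37 did so with DM lower, against 2.45%.

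DM mice were uneven. Myc read 5.56 and 5.89 on DM replicates 1 and 2 but 4.20 and 4.09 on replicates 3 and 4, the last pair close to the NC range of 3.92 to 4.17 (0.86 ± 0.35 SE; limma adjusted p = 0.401). Klf10, a TGF-beta-inducible repressor, read 6.57, 7.41, 6.21 and 6.08 in DM and 6.09, 5.96, 5.46 and 5.93 in NC, with DM replicate 2 far above the others (0.71 ± 0.26 SE; limma adjusted p = 0.344). Nfkbia lay between 6.56 and 7.52 on the DM arrays, and replicate 4 was within the NC range (0.48 ± 0.18 SE; limma adjusted p = 0.344). Maff read 4.92, 4.82, 4.46 and 4.36 in DM, the lower 2 of them within the NC range (0.41 ± 0.17 SE; limma adjusted p = 0.382). Nr4a2 was the member on the lower side, at 3.34, 2.86, 4.02 and 3.34 in DM (-0.50 ± 0.22 SE; limma adjusted p = 0.437). Without DM replicate 2 the change was 0.54 for Myc, 0.43 for Klf10 and -0.33 for Nr4a2, and without DM replicate 1 it was 0.31 for Nfkbia. Without the 5 arrays of a high Myl7 signal it was 0.05 for Myc, 0.26 for Klf10 and -0.11 for Nr4a2. That setting keeps DM replicate 3 as the only DM array.

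Dusp1, Egr1 and Fos were not called in DM against NC. Dusp1 read 8.10, 7.80, 8.34 and 7.86 in DM, above and below the narrow NC range, with a change of -0.23 ± 0.14 (SE; limma adjusted p = 0.587), which was 0.0704 without those 5 arrays of a high Myl7 signal. Egr1 read 4.58, 5.93, 6.55 and 5.89 in DM, a spread that covered the whole NC range, with a change of -0.51 ± 0.29 (SE; limma adjusted p = 0.571). It was -0.12 without DM replicate 1 and -0.78 without DM replicate 3. Without the 5 arrays of a high Myl7 signal it was 0.0984. For that value, and for the 0.0704 of Dusp1, DM replicate 3 is the only DM array. Fos read 4.23, 4.58, 4.76 and 4.24 in DM, with a change of -0.0016 and a 95% interval from -0.45 to 0.44. The number of members at an unadjusted p under 0.05 was 2 without DM replicate 1, without DM replicate 2 or without NC replicate 3, and 10 without DM replicate 3. Over all genes limma called 3, 3, 3 and 9 in these fits. The share of all genes at an unadjusted p under 0.05 was not counted in them.

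In AngIV against DM, diabetic mice with the peptide infusion against those without, limma called 0 of 37 members and 0.0% of all genes. These groups also differed in atrial markers. All 3 were lower in AngIV at an unadjusted p under 0.05 (3.51% of all genes), 2 of them without overlap (2.19%), with a median log2 change of -2.40. Of 5 smooth muscle and pericyte markers 2 were higher in AngIV without overlap (3.57% of all genes). At an unadjusted p under 0.05 there were 0 of these 5. Their mean log2 signal was 6.96 to 7.42 in AngIV, 6.41 to 7.08 in DM and 6.63 to 8.01 in NC. Whether the peptide, the atrial tissue or other cell types lie behind a difference was not tested. At an unadjusted p under 0.05 there were 5 members (13.5%), 1 higher and 4 lower, against 8.78% of all genes, 5.27% higher and 3.51% lower. The median change was -0.09 over the members and 0.01 over all genes, and 24 of 37 members had a negative one, against 47.1% of all genes. Fos and Egr2 did not overlap between the groups, both lower in AngIV, where 2.19% of all genes did so, and 0 members were separate with AngIV higher, where 3.57% of all genes were. Fos lay at 3.17 to 4.09 in AngIV and 4.23 to 4.76 in DM (-0.64 ± 0.21 SE; limma adjusted p = 0.46), and Egr2, a relative of Egr1, at 4.86 to 5.17 and 5.22 to 5.45 (-0.26 ± 0.11 SE; limma adjusted p = 0.545), all near background.

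Dusp1 had a change of -0.48 ± 0.14 (SE; limma adjusted p = 0.372) from DM, with AngIV replicate 2 at 7.93 within the DM range of 7.80 to 8.34. Klf10 read 5.44, 6.37, 5.77 and 5.54 in AngIV, below the DM arrays but for replicate 2 (-0.79 ± 0.26 SE; limma adjusted p = 0.464). Dusp4 had a change of 1.02 ± 0.35 (SE; limma adjusted p = 0.487), with DM replicates 1 and 2 at 4.28 and 5.09 within the AngIV range. Egr1 had -0.37 ± 0.29 (SE; limma adjusted p = 0.722). It was -0.76 without DM replicate 1 and -0.10 without DM replicate 3. Without the 5 arrays of a high Myl7 signal it was -1.19. That setting keeps DM replicate 3 as the only DM array, which had the highest Egr1 signal of the DM group. Without those 5 arrays, and so against DM replicate 3 alone, Dusp1 had -0.79, Klf10 -0.43 and Egr2 -0.15. Klf10 had -0.51 without DM replicate 2, and Dusp4 0.64 without AngIV replicate 4. AngIV against DM shares its DM arrays with DM against NC and its AngIV arrays with AngIV against NC, so the 3 sets of values are not independent.

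The mean log2 signals of further members follow (SD, n = 4 in each group). Egr3, an activity-induced relative of Egr1, stood at 6.14 ± 0.18 in AngIV, 6.14 ± 0.27 in DM and 5.99 ± 0.12 in NC. These Egr3 values come from its brightest probe set, whose ID has no place on a chromosome. Csrnp1, an AXIN-induced nuclear protein gene, stood at 4.32 ± 0.28 in AngIV, 4.41 ± 0.21 in DM and 4.39 ± 0.21 in NC, near background. The 3 groups overlapped for both genes.

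Ier2 stood at 3.71 ± 0.30 in AngIV, 3.91 ± 0.34 in DM and 3.94 ± 0.13 in NC, also near background. Ier5 stood at 5.67 ± 0.24 in AngIV, 5.63 ± 0.13 in DM and 5.56 ± 0.18 in NC. Gadd45b, a stress sensor gene that acts on p38 and JNK signalling, stood at 5.65 ± 0.38 in AngIV, 5.54 ± 0.22 in DM and 5.28 ± 0.26 in NC, with the NC mean near background. The groups overlapped for these 3 members as well.

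Socs3 stood at 4.69 ± 0.15 in AngIV, 4.71 ± 0.21 in DM and 4.60 ± 0.06 in NC, near background. Rhob, a GTPase of endosomes and the cytoskeleton, stood at 6.23 ± 0.11 in AngIV, 6.40 ± 0.12 in DM and 6.19 ± 0.26 in NC. Neither separated AngIV from NC on all arrays. In DM, Jun stood at 6.52 ± 0.28, Junb at 6.35 ± 0.12, Jund at 7.14 ± 0.10 and Nr4a1 at 6.24 ± 0.73. Srf stood at 6.96 ± 0.23, Klf2 at 5.82 ± 0.13, Klf6 at 6.84 ± 0.32 and Zfp36l1 at 7.57 ± 0.22 in the same group, and Btg2 at 5.97 ± 0.24. For these 9 the DM arrays overlapped the NC arrays, and each unadjusted p against NC was above 0.05.

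The members varied widely between mice of the same group. The within-group SD of the log2 signal was above the median of genes of like level (bins of 0.5 log2 units) for 30 of 37 members and above the 90th percentile for 14. Nr4a3 had an SD of 0.98, Nr4a1 0.63, Myc 0.63, Dusp4 0.62, Egr1 0.51 and Klf10 0.45, and Klf10, the lowest of these, stood at percentile 98.4 of all 13653 genes. At the other end Jund had 0.12, Btg1 0.13, Klf4 0.13, Fosl1 0.13 and Junb 0.15. Nr4a1 and Nr4a3 shared their highest arrays in NC and DM, with NC replicate 2 at 7.54 and 6.84 and DM replicate 4 at 7.20 and 6.63, while in AngIV Nr4a1 was highest on replicate 4 (6.89) and Nr4a3 on replicate 1 (6.12). NC replicate 2 was the highest array of 8 members and the lowest of 6, and it was also the highest array for 12.6% and the lowest for 13.4% of all genes.

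**Figure D4:**
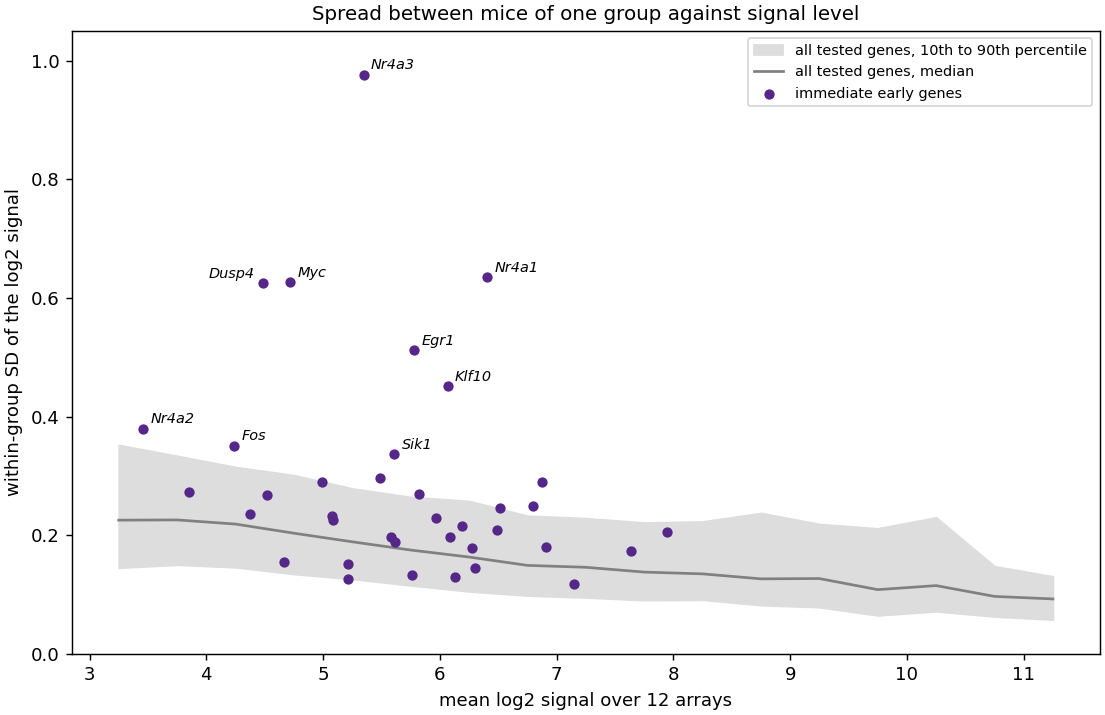
Within-group SD of the log2 signal (vertical axis) against the mean log2 signal over 12 arrays (horizontal axis) for the 37 tested members (points) and for all tested genes (grey line, median; grey band, 10th to 90th percentile, in bins of 0.5 with at least 20 genes). Nr4a3 at 0.98 stands highest, and 14 members lie above the 90th percentile of genes of their level.

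Genes around the members were counted in a pair of lists. Of 36 tested other early response genes 0 were called in any comparison, and 11 (30.6%) had an unadjusted p under 0.05 in AngIV against NC, 6 higher and 5 lower, against 18.6% of all genes. Those with the smallest p were Spry2, Mcl1 and Thbs1 (SD, n = 4 each, in what follows). Spry2, a brake on growth factor signalling, stood at 5.89 ± 0.08 in AngIV and 5.40 ± 0.05 in NC, the latter near background (limma adjusted p = 0.0537). The survival gene Mcl1 stood at 8.20 ± 0.09 and 7.88 ± 0.09 (limma adjusted p = 0.0886). The matrix gene Thbs1 stood at 4.62 ± 0.55, near background, and 5.66 ± 0.78 (limma adjusted p = 0.112). In DM against NC the list had 3 genes at that level (8.33%, against 10.7% of all genes), led by the factor gene Cebpd at 7.14 ± 0.48 in DM and 6.12 ± 0.50 in NC (limma adjusted p = 0.225), with Vcl and Odc1 next. In AngIV against DM it had 4 (11.1%, against 8.78% of all genes), led by Spry2, the G protein regulator gene Rgs2 at 5.75 ± 0.73 in AngIV and 6.56 ± 0.22 in DM, and the kinase gene Sgk1 at 6.91 ± 0.36 and 7.35 ± 0.20 (SD, n = 4 each; limma adjusted p from 0.487 to 0.496).

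Of 26 tested upstream kinases and factors 1 was called in AngIV against NC, where 2.15% of all genes were. Mrtfb, a coactivator of SRF that senses actin, rose in AngIV against NC, at 6.32 ± 0.08 in AngIV and 5.66 ± 0.20 in NC (SD, n = 4 each), a log2 change of 0.66 ± 0.14 (SE; limma adjusted p = 0.0279). In that comparison 4 of the 26 (15.4%) had an unadjusted p under 0.05, 3 higher and 1 lower, a share below the 18.6% of all genes. The next by p were the kinase gene Mapkapk2 at -0.45 ± 0.18 and the muscle factor gene Mef2d at 0.20 ± 0.09 (SE). Both means of Mapkapk2, 4.90 in AngIV and 5.35 in NC, lay near background. The count was 1 of 26 (3.85%, against 8.78% of all genes) in AngIV against DM, Mrtfb at 0.41 ± 0.14 (SE; limma adjusted p = 0.487). Mapkapk2 and Mapk8 came next, with means near background in both groups. In DM against NC the count was 0 of 26 (10.7% of all genes), and Mef2d, Crtc2 and Atf1 had the smallest p.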

How the data were processed

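Signals come from a single table of log2 values that the authors deposited. RMA, which corrects background, equalises the arrays by quantiles and summarises probes, made it per the submitters' processing notes. That scale was inferred from the range of the values. Its version, chip description and build are not given in the sources used here. Equalised arrays hide changes in total mRNA. Of 29129 probe sets, 6923 were controls. Of the other 22206, 19572 had 1 gene symbol and 2634 had none. The 19572 with a symbol were all matched by Entrez ID to RefSeq (GRCm38.p6). The brightest probe set per gene was kept, and the dimmest 30% of 19505 genes were left out, by the mean over all arrays. Limma 3.58.1 in R 4.3.3 (lmFit, eBayes) was fitted to all 12 arrays with a mean per group, with Benjamini-Hochberg adjustment over 13653 genes. The number of arrays limits the precision. The fit was tested on simulated data.

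Members and lists were chosen with earlier results of these data known. Changes with SE and p are given for members with an unadjusted p under 0.05 in a comparison and always for Fos, Egr1 and Dusp1; other early genes are named where called or among the 3 smallest p-values of their list. Arrays correlated at 0.976 to 0.990 within groups and 0.978 to 0.990 between groups. Titles number replicates 1 to 4 in each group without saying that a number marks a shared litter or day; deviations of same-numbered arrays correlated at -0.12 to 0.21, and the numbers were not taken as pairs.

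Alternatives were other filters on dim genes, a prior trend, robust eBayes, array weights, a replicate block, an atrial marker covariate, other scalings, 2 groups only and each array left out; leaving out the 5 arrays with a Myl7 log2 signal above 7 was chosen after seeing the data.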

Additional observations from a re-analysis of the deposited data

Results flagged for a closer look

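In 10 of 114 sets of 4 arrays, 1 array stood far from the other 3 of its group by Dixon's test. For normally spread values chance gives about 1 in 20. The same count was not made over all genes, so the flags are not shown to set the members apart. Dusp1 read 7.93 on AngIV replicate 2 and 7.37 to 7.46 on the other AngIV arrays, so that this mouse lay nearest to NC for the member that fell. Btg2 read 6.32 on DM replicate 3, against 5.80 to 5.87 on the other DM arrays, and on the same array Socs3 read 4.39, against 4.78 to 4.84. AngIV replicate 1 stood apart for Atf3, at 5.24 against 4.92 to 4.96, and for Zfp36, at 4.42 against 5.21 to 5.32. AngIV replicate 4 did so for Fosb, at 5.27 against 4.90 to 4.95, and for Egr2, at 4.86 against 5.12 to 5.17. NC replicate 2 was low for Klf2, at 5.52 against 6.08 to 6.19, and for Rhob, at 5.79 against 6.28 to 6.36. Gadd45b read 4.89 on NC replicate 1, against 5.37 to 5.45 on the other NC arrays. The cause of these values was not tested.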

How the results depend on the processing

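Of 777 recomputed changes of single members under 25 settings, 730 kept their direction and side of the threshold, 28 gained and 9 lost a call, and 10 turned sign, all in DM against NC. Genes called in AngIV against NC numbered 293, and 492 with the dimmest 50% left out, 594 with genes above the negative controls only, 576 with a prior trend, 466 with the 2 compared groups only, 102 without the Myl7-high arrays and 104 to 469 with 1 array left out. Under these settings DM against NC, with 3, had 20, 24, 29, 5, 0 and 3 to 30 genes, and AngIV against DM, with 0, had 0 to 5 with 1 array left out. Members called in AngIV against NC were 4 with genes above the negative controls only, 4 with a prior trend, 6 with the atrial covariate, 7 with 2 groups only and 0 to 4 with 1 array left out. With a replicate block they were 4, adding Fos and Sik1, and 218 of all genes were called, against 293 without the block. No member was called with it in the other comparisons, where 3 genes (DM against NC) and 0 genes (AngIV against DM) were called. Replicate numbers are not known to pair mice. Members at an unadjusted p under 0.05 numbered 10 in AngIV against NC and 3 in each other comparison with genes above the negative controls only. AngIV against DM had 3 with the dimmest 50% left out, 11 without the Myl7-high arrays and 4 to 8 with 1 array left out. DM against NC had 3 without the Myl7-high arrays and 2 to 10 with 1 array left out. The share of all genes at an unadjusted p under 0.05 was not counted under these settings. Filters leave fewer genes and members tested, and the cause of the other shifts was not tested. The members' median change was -0.17 in AngIV against NC without the Myl7-high arrays. With 1 array left out it ranged from -0.1915 to -0.0469 in AngIV against NC and from -0.0105 to 0.0847 in DM against NC. In DM against NC the change of Fos was 0.0789 with the atrial covariate, 0.0039 with centred arrays, 0.041 with array weights, 0.0404 without the Myl7-high arrays and -0.1458 to 0.1041 with 1 array left out. Without the Myl7-high arrays Egr1 had 0.0984 and Dusp1 0.0704 there. That setting leaves 1 DM and 2 NC arrays, and the lone DM array is assumed to vary like the others. Signals near the negative controls limit what 14 members can show.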
